A study of Rattus norvegicus with 4 samples.

Results

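Cathepsins are the main protein-degrading enzymes of the lysosome, the acidic compartment to which a macrophage delivers the particles it has engulfed. They were followed here in 10 genes, Ctsa, Ctsb, Ctsc, Ctsd, Ctsf, Ctsh, Ctsk, Ctsl, Ctss and Ctsz, out of 39506 genes and unnamed transcripts with a probe on the array. The 10 symbols were chosen with earlier results of these data known. A gene of these was included if a non-control probe carried a RefSeq accession of that symbol, whatever its signal. Each of the 10 genes had 1 such probe. The RNA came from NR8383, a continuous macrophage line established from lung lavage of a normal rat, at 20 passages and grown partly attached and partly floating. Cells had been seeded for 48 h and were then incubated for 4 h at 0.9 cm²/cm² with Printex 90, a carbon black made of clustered nanoparticles. The 4 biological replicates of this exposed group were each hybridised to 1 Cy3-labelled Agilent array. Incubations without particles were not analysed here, so all values are levels in exposed cells and no effect of carbon black was computed. All replicates are of 1 cell line, and the labels do not say that they came from separate thaws, so the spread between arrays may be partly technical.

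Cathepsins are made as inactive proenzymes, carried to endosomes and lysosomes largely by mannose 6-phosphate receptors, and activated by cleavage at low pH. Cathepsin D is an aspartic protease, cathepsin A a serine carboxypeptidase, and cathepsins B, C, F, H, K, L, S and Z are papain-like cysteine proteases. In macrophages they degrade engulfed protein, process antigens and activate other enzymes, and their release from damaged lysosomes is one known trigger of inflammasome signalling.

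The level of a gene is the log2 processed intensity of its probe minus the 75th percentile over all probes of the same array, so that 0 is that percentile. Probes differ in how strongly they bind, so the level of one cathepsin is not set against that of another. On the 4 arrays, between 37.5% and 40.9% of probes carried the scanner software's mark for a signal well above background, and no spot was saturated. A gene is called detected where its probe carried that mark on all 4 arrays. All 10 measured macrophage markers were detected. Of the markers of other cell types, all 3 measured for osteoclasts (Acp5, Calcr and Oscar) were detected. For fibroblasts 1 of 6 was detected (Dcn), for alveolar type 2 cells 1 of 6 (Napsa). Of T and NK cell markers 2 of 5 were detected (Cd3d and Nkg7). The count was 0 of 5 for granulocytes and mast cells and 0 of 3 for dendritic cells. S100a8 of granulocytes was marked on 2 arrays and Sftpd of type 2 cells on 1. Napsa is itself a lysosomal aspartic protease, with levels of 7.19, 7.34, 7.27 and 7.17 on replicates 1 to 4.

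Nearly all of the 10 chosen cathepsin genes were detected in the exposed macrophages. Of the 10 genes 9 were detected, and Ctsk carried no mark on any array. Among all 16581 named genes, 47.9% were detected and 44.0% carried no mark, and of all 39506 genes and unnamed transcripts 34.0% were detected. The 10 genes were chosen with earlier results of these data known, and of 9 measured genes of other cathepsins 0 were detected. The count of 9 of 10 therefore does not give the share detected among cathepsins as a family. The mean levels of the 9 detected genes lay between 2.83 and 9.32, all above the 75th percentile of their arrays. Against the 75th percentile of detected probes alone, Ctsh and Ctsl lay below 0, at -0.088 and -0.69, and the other 7 above it. In RNA from whole cultures, the share of cells that express a gene and the amount per cell cannot be told apart.

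**Figure D1:**
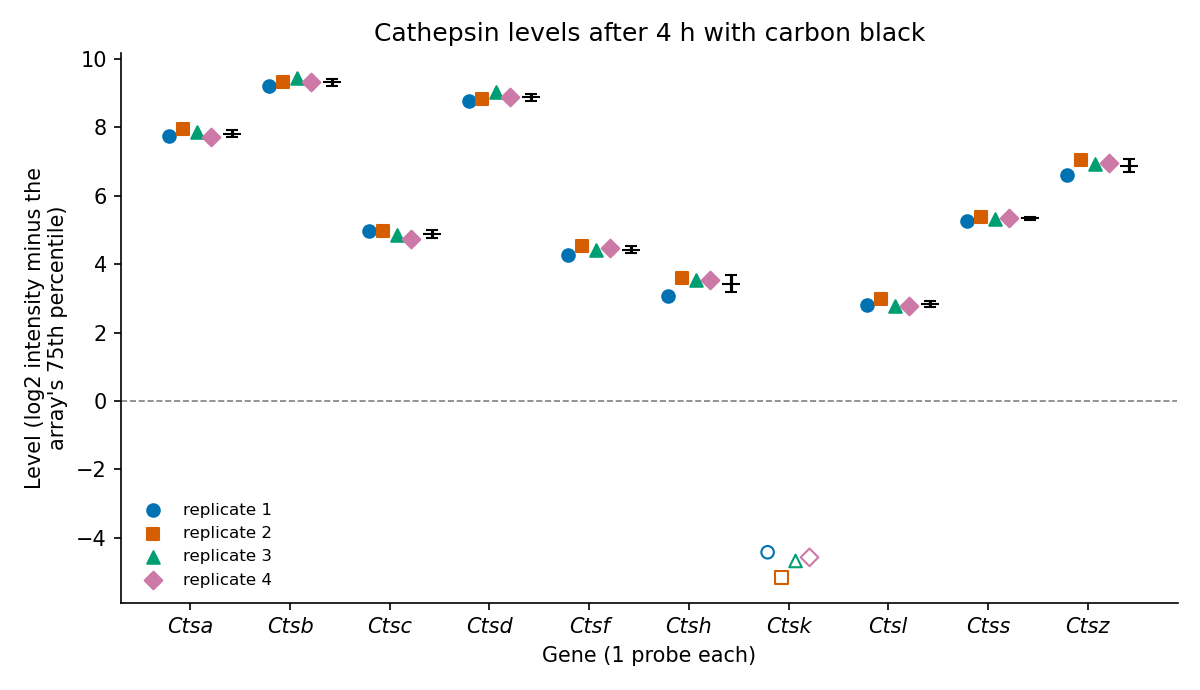
Level of each cathepsin gene (log2 processed intensity minus the array's 75th percentile, vertical axis) on each of the 4 replicate arrays (coloured points), with the mean ± SD as a black bar. All 9 filled genes lie above 0, while Ctsk (open points, not well above background) lies between -5.16 and -4.42.

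The genes of the aspartic and serine enzymes were read by 10 spots on every array. Ctsd encodes cathepsin D, an endopeptidase that cuts bulk protein and processes other lysosomal proenzymes. Its processed intensity was 47626, 42461, 32953 and 30195 on replicates 1 to 4, which gave levels of 8.77, 8.82, 9.02 and 8.89, or 8.87 ± 0.11 (SD, n = 4). Replicates 1 and 2 had the brightest Ctsd spots but the lowest levels, because the 75th percentile of those arrays was also higher, at 109 and 93.7 against 63.7 and 63.8 on replicates 3 and 4. Ctsa encodes cathepsin A, which trims carboxy-terminal residues and holds neuraminidase 1 and beta-galactosidase in a protective complex. Its intensity was 23255, 22878, 14922 and 13249, and its levels were 7.74, 7.93, 7.87 and 7.70, or 7.81 ± 0.11 (SD, n = 4). The lowest Ctsa spot on replicates 2 and 3, at 7.81, was above the highest on replicates 1 and 4, at 7.79. This order rests on the scaling, and with quantile normalization Ctsa was at 7.86, 7.88, 7.78 and 7.72.

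The repeated spots give the reading error within an array. For Ctsa the SD between single spots was 0.039 to 0.057 log2 units within an array, which leaves a standard error of 0.012 to 0.018 for the mean of 10 spots. For Ctsd the SD between spots was 0.050 to 0.12, with the widest scatter on replicate 2, and the standard error of the mean 0.016 to 0.039. For Ctsl they were 0.097 to 0.17 and 0.031 to 0.054. The SD between arrays of these means was 0.11, 0.11 and 0.098 for Ctsa, Ctsd and Ctsl, larger than the standard error on any array. This SD moved both ways with the processing. In the same order of genes it was 0.055, 0.113 and 0.063 with the 75th percentile of detected probes. With quantile normalization it was 0.076, 0.056 and 0.070, and with the background corrected in another way 0.213, 0.082 and 0.185. The other 7 cathepsins had 1 spot per array, so this comparison could not be made for them.

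**Figure D2:**
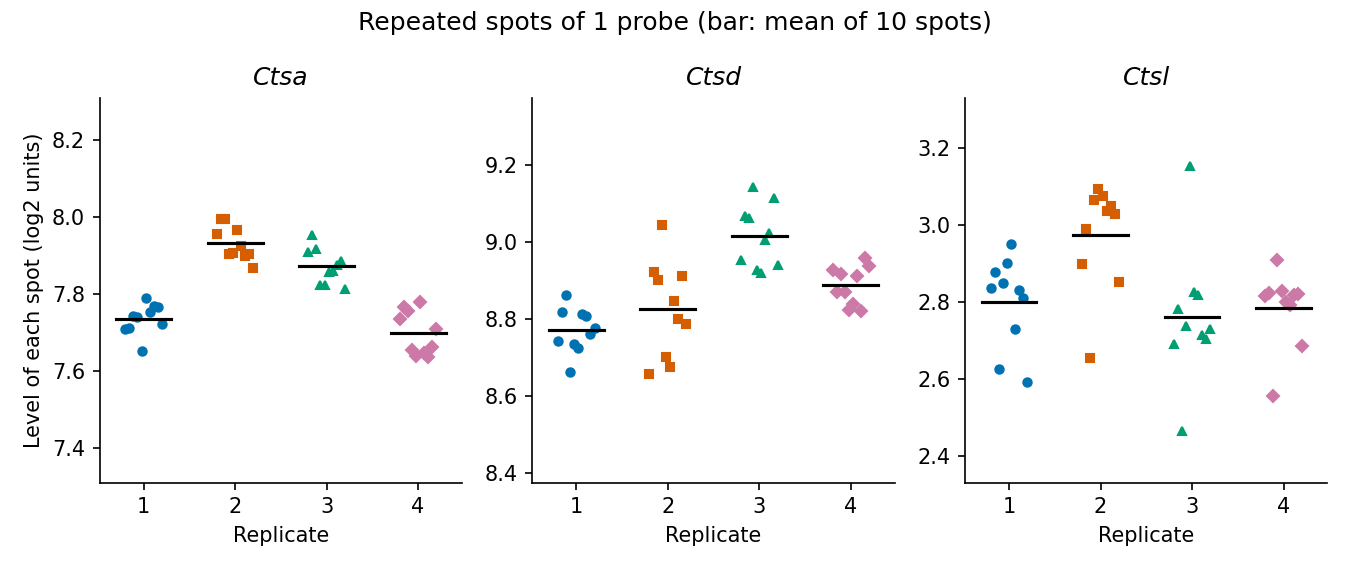
Level (log2 units, vertical axis) of the 10 repeated spots of the Ctsa, Ctsd and Ctsl probes on each replicate array, with black bars at the mean of the spots. The vertical axes have the same length of 1 log2 unit. Spots of Ctsa have an SD of 0.039 to 0.057 within an array, and single spots of Ctsl reach from 2.47 to 3.15 on replicate 3.

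Cysteine cathepsins that trim protein ends were all detected. Ctsb encodes cathepsin B, which cuts inside proteins and also removes carboxy-terminal dipeptides. Its intensity was 63762, 59246, 44138 and 40996 on replicates 1 to 4, and its levels of 9.19, 9.31, 9.44 and 9.33 averaged 9.32 ± 0.10 (SD, n = 4). Ctsc encodes cathepsin C, or dipeptidyl peptidase I, which activates granule serine proteases by removing their amino-terminal dipeptide. It had intensities of 3387, 2939, 1853 and 1694 and levels of 4.96, 4.97, 4.86 and 4.73, or 4.88 ± 0.11, with the lowest on replicate 4. With this scaling it was the only one of the 9 above its own mean on replicate 1. Ctsz encodes cathepsin Z, also called cathepsin X, a carboxypeptidase of myeloid cells. Its levels of 6.62, 7.03, 6.91 and 6.95 averaged 6.88 ± 0.18, from intensities of 10694, 12261, 7680 and 7892, with replicate 1 below the other arrays. Ctsh encodes cathepsin H, an aminopeptidase that also processes surfactant protein in type 2 cells. It had intensities of 920, 1126, 739 and 734 and levels of 3.08, 3.59, 3.54 and 3.53, or 3.43 ± 0.24. Replicate 1 stood 0.51 log2 units below replicate 2, a 1.43-fold span, and the other 3 arrays lay between 3.53 and 3.59.

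The cysteine cathepsins that cut inside proteins were detected except for Ctsk. Ctss encodes cathepsin S, which stays active at neutral pH and trims the invariant chain of MHC class II molecules. Its intensity was 4214, 3906, 2562 and 2599 on replicates 1 to 4, and its levels of 5.27, 5.38, 5.33 and 5.35, or 5.33 ± 0.046 (SD, n = 4), differed little between arrays. With the other background correction, which also added an offset of 50, its SD was 0.17. Ctsl encodes cathepsin L, a broad lysosomal endopeptidase. It had intensities of 760, 737, 432 and 439. Its levels of 2.80, 2.98, 2.76 and 2.79, or 2.83 ± 0.098, were highest on replicate 2. With quantile normalization the Ctsl levels were 2.86, 2.91, 2.75 and 2.81. Ctsf, which encodes cathepsin F, an enzyme that can also cut the invariant chain, had intensities of 2115, 2172, 1352 and 1409. Its levels were 4.28, 4.54, 4.41 and 4.47, or 4.42 ± 0.11.

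Ctsk encodes cathepsin K, the collagen-degrading protease of osteoclasts and of some fibroblasts and macrophages. Its processed intensity was 5.09, 2.62, 2.49 and 2.69 on replicates 1 to 4, while the lowest intensity of any spot marked well above background was 22.3, 11.3, 10.8 and 12.1. The Ctsk spot was therefore at 0.228, 0.232, 0.230 and 0.222 of that limit. Before any correction it was 1.03, 0.823, 0.883 and 0.839 times as bright as its local surround. The error that the software gave for this spot was 100% of the intensity on every array. The Ctsk levels of -4.42, -5.16, -4.67 and -4.57 are therefore not measurements, and no spread was tested. Neither these levels nor the fractions of the limit say how far below it Ctsk lay. On replicate 1 the 9 detected members lay between 34.1 and 2859 times the same limit.

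Ctsk and Ctss are near neighbours on rat chromosome 2, separated in RefSeq (assembly GRCr8) by 1 other protein-coding gene model. Ctss was detected and Ctsk was not. The 250 bases before each annotated start are shown because the pair differ in detection. Ctsd and Ctsf are shown with them because they alone of the members held CACGTG, the core of the element that binds the lysosomal regulators of the TFEB family. RefSeq promoters were found for 9 of the 10 genes and not for Ctsb. Capitals mark matches, on either strand, to 1 of 7 motifs searched.
Ctsk, chr2:185747298-185747547, plus strand: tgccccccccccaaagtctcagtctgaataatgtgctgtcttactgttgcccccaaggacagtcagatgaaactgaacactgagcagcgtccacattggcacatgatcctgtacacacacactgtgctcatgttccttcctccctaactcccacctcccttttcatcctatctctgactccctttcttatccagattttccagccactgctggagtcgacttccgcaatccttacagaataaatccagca
Ctss, chr2:185775146-185775395, plus strand: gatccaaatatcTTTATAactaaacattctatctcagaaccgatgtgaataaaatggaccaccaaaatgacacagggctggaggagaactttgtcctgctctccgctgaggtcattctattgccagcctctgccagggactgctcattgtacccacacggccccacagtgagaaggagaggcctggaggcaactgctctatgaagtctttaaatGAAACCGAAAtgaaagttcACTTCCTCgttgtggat
Ctsd, chr1:206968822-206969071, minus strand: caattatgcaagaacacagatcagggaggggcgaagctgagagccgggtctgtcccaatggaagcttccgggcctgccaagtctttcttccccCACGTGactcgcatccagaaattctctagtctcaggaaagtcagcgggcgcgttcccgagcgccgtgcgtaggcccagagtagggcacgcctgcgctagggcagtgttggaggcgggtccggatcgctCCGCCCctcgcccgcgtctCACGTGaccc
Ctsf, chr1:211581919-211582168, plus strand: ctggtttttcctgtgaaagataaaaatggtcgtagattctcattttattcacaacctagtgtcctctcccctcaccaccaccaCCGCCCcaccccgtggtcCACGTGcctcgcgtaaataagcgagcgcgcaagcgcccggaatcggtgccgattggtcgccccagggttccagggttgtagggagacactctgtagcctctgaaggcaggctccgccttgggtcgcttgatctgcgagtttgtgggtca

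The motifs were searched in the window from 250 bases before to 50 after the start. The Ctsk window held none of the 7. The Ctss window held the myeloid PU.1 motif GAGGAAGT at position -17, counted in bases from the start. It also held a short form of the interferon-stimulated response element at -36 and the TATA box TATAAA at -238. All 3 read on the strand opposite to the gene, so the printed capitals are their complements read backwards. The PU.1 motif was also in Ctsc, at -248, and in 2.42% of all 33469 promoter windows, the interferon element in 3.92% of them and the TATA box in 14.2%. CACGTG stood at -157 and -10 in Ctsd and at -149 in Ctsf, and in 6.42% of all windows. No member window held the full CLEAR element, a longer palindrome around that core, which 0.233% of all windows did. None held the AP-1 motif TGANTCA, which 7.33% did. The GC box GGGCGG was in 7 of 9 member windows, all but those of Ctsk and Ctss, and in 33.1% of all windows. A match is a run of letters and not a measured binding site.

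The windows also differed in base composition. The GC content of the 9 windows lay between 45.3% for Ctss and 66.7% for Ctsl, with 48.3% for Ctsk and 51.3% for Ctsh, and the median of all windows was 51.7%. The observed over expected ratio of CpG lay between 0.203 for Ctsk and 0.907 for Ctsd. It was 0.264 for the detected gene Ctsh, 0.392 for Ctss, 0.493 for Ctsa and 0.542 for Ctsc, with 0.392 as the median of all windows.

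The spread of each detected cathepsin between replicates was set against that of genes of like level. None of the 9 tested members passed (adjusted p between 0.987 and 0.993, limma), where 0.469% of all 14916 tested genes did. At an unadjusted p under 0.05 the count was 0 as well, against 5.06% of all tested genes, and the smallest member p was 0.106 for Ctsh. The median SD of the 9 genes was 0.11 log2 units, and that of all tested genes 0.16. Of the 9, 7 had an SD below the median of tested genes whose mean level lay within 0.5 log2 units of their own (the member included), and Ctsh and Ctsz were above it. Ctss had a smaller SD than all but 4.08% of 760 such genes. Ctsz had a larger SD than 85.6% of 381 and Ctsh a larger SD than 92.7% of 1436. The others lay nearer the middle, with a larger SD than 30.6% (Ctsl) to 44.3% (Ctsa) of such genes. The median SD of genes of like level was between 0.119 and 0.131, below the 0.16 of all tested genes. Without replicate 1 the SD of Ctsh was 0.033 and that of Ctsz 0.061, in place of 0.24 and 0.18. A p that misses the threshold does not show that the levels were equal.

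**Figure D3:**
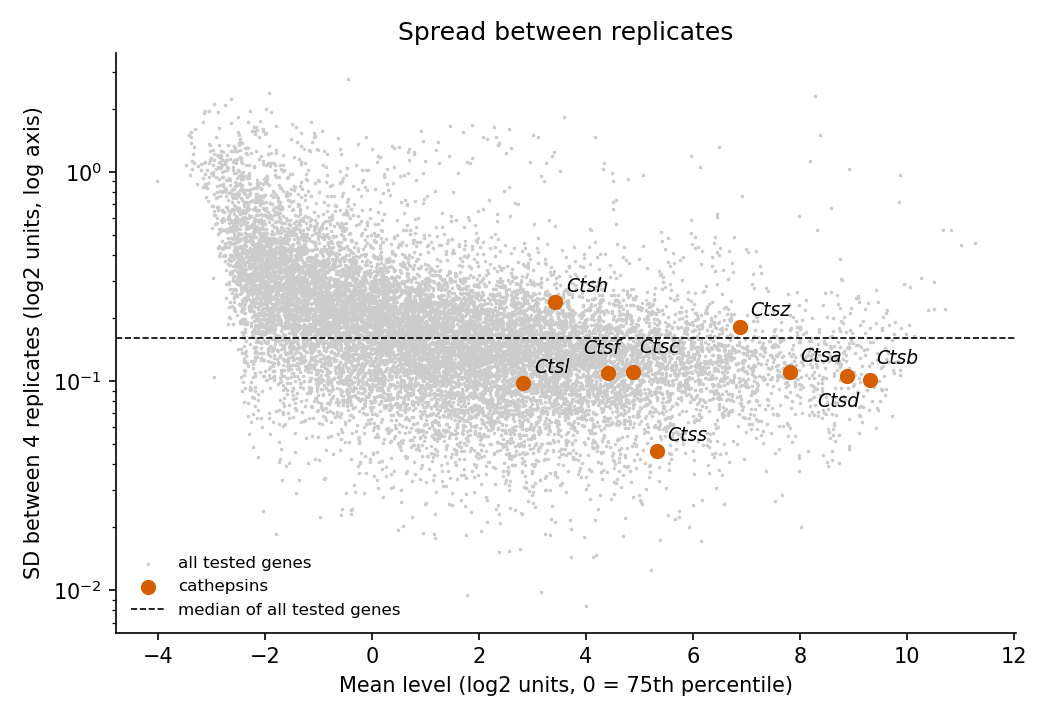
SD between the 4 replicates (log2 units, logarithmic vertical axis) against mean level (log2 units, horizontal axis) for all 14916 tested genes (grey) and the 9 detected cathepsins (orange), with the median SD of all tested genes, 0.16, as a dashed line. Ctsh and Ctsz lie above the line, and the other 7 cathepsins lie below it.

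Deviations from each gene's own mean showed whether the cathepsins shifted together on an array. On replicate 1, 8 of the 9 lay below their own mean, with a median deviation of -0.10 log2 units, and 6 had their lowest level there. Over all tested genes 59.6% were below their own mean on that array and 39.4% had their lowest level there, with a median deviation of -0.045. On replicate 2, 7 cathepsins lay above their mean and 7 had their highest level there, with a median of 0.11, while 67.6% of all tested genes lay above their mean and 38.6% were highest there, with a median of 0.069. All 9 cathepsins were higher on replicate 2 than on replicate 1, by a median of 0.17 log2 units against 0.11 over all tested genes.

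These shifts depended on the scaling. Higher on replicate 2 than on replicate 1 were 5 of the 9 with the percentile over detected probes, 7 with that over all spots, 5 after quantile normalization and 6 when the background was corrected in another way. In the same order of settings, 3, 5, 3 and 0 cathepsins had their lowest level on replicate 1, and 1, 2, 2 and 6 their highest level on replicate 2. Below their own mean on replicate 1 were 7, 7, 3 and 2, and the median deviation there was -0.055, -0.068, 0.030 and 0.066. Ctsh was lowest on replicate 1 under every scaling by a percentile or by quantiles, at 3.12 against 3.51 to 3.57 with quantile normalization, but lowest on replicate 4 with the other background correction.

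**Figure D4:**
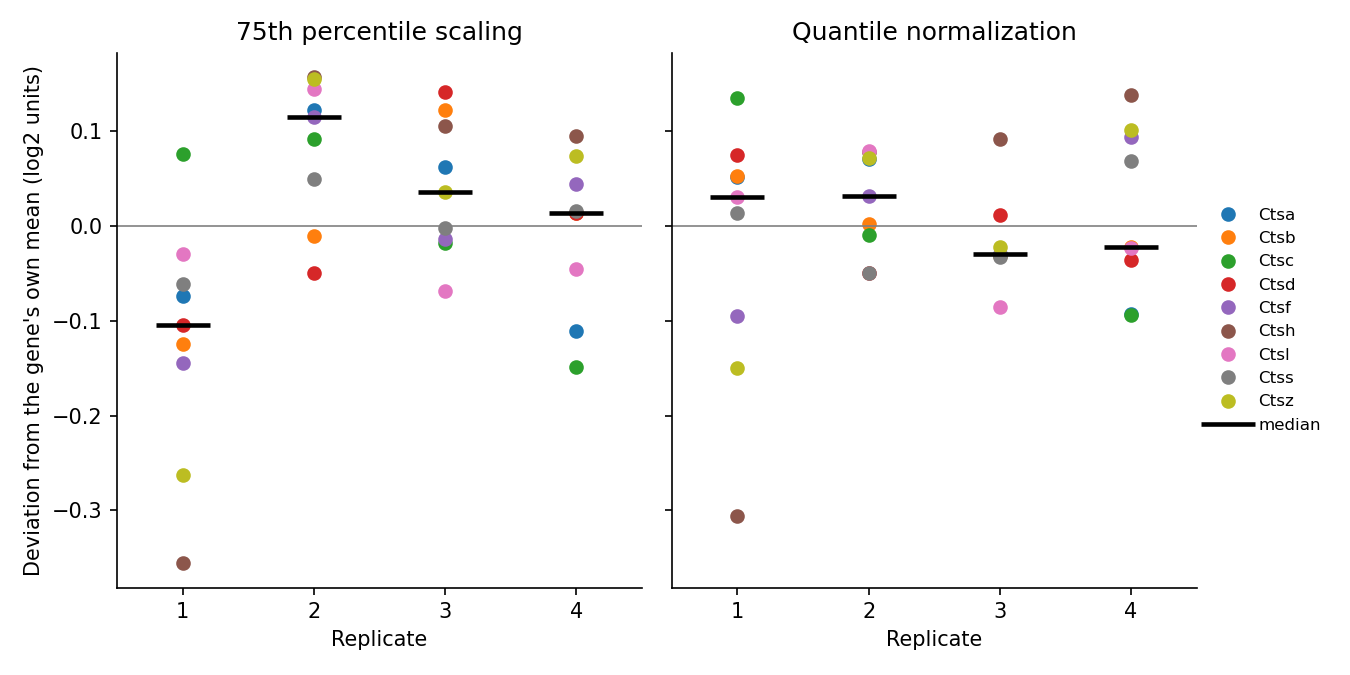
Deviation of each detected cathepsin from its own mean over the 4 arrays (log2 units, vertical axis) by replicate, with the 75th percentile scaling on the left and quantile normalization on the right. Black bars are the medians of the 9 genes. The bar of replicate 1 is at -0.10 on the left and at 0.030 on the right, and Ctsh is lowest on replicate 1 in both.

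Among 8482 other named genes tested, the 3 whose deviations over the 4 arrays were nearest to those of Ctsh were Gch1, Cebpg and Faim, at Euclidean distances of 0.0084, 0.015 and 0.016 log2 units. Gch1 encodes the first enzyme of tetrahydrobiopterin synthesis, Cebpg a partner of bZIP transcription factors and Faim an inhibitor of death receptor signalling. Gch1 had levels of 3.90, 4.40, 4.35 and 4.34 on replicates 1 to 4. All 3 were lowest on replicate 1, as Ctsh was, which follows from picking them by nearness to Ctsh. With 4 arrays of 1 group the nearness is a description only.

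Of 9 measured genes of other cathepsins, 0 were detected and 8 carried no mark on any array. Among all named genes 47.9% were detected and 44.0% carried no mark. Of the 10 above 9 were detected, but the family was divided into these lists with earlier results of these data known. The other cathepsins included Ctse, an aspartic enzyme, Ctsw of cytotoxic lymphocytes and Ctsg of neutrophil granules. Cts7, from the placental cluster of rodents, was marked on 1 array, and Ctso was not matched to a probe. Of 10 inhibitor genes, 5 were detected and 5 had no mark, near the 47.9% detected among all named genes. Cst3, the secreted cystatin C, had levels of 6.26, 6.47, 6.41 and 6.25, and Cstb, the cytosolic cystatin B, 7.57, 7.71, 7.82 and 7.65. On this scale both were lower on replicates 1 and 4 than on 2 and 3, and so was the median of all tested genes, with deviations of -0.045, 0.069, 0.015 and -0.024. The other detected inhibitors were Serpinb1a, Serpinb6 and Spink5, and Cst7, Csta, Cst6, Cst8 and Serpina3n had none.

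The sorting and activation route was detected in full as far as it was measured. All 12 measured genes, of 14 listed, were detected. Among all named genes 47.9% were, a share to set beside the lists that follow as well. Lgmn, an asparagine-specific protease that converts cathepsins to their processed forms, had a level of 4.70 ± 0.14 (SD, n = 4). The mannose 6-phosphate receptor genes M6pr and Igf2r had 6.55 ± 0.15 and 6.13 ± 0.082, and the alternative sorting receptor gene Sort1 3.49 ± 0.20. Gnptab and Gga3 were not matched to a probe. All 3 partner genes of cathepsin A were detected, with Neu1 at 2.74 ± 0.055, Glb1 at 3.95 ± 0.12 and Galns at -1.68 ± 0.24. All 4 lysosomal transcription factor genes were detected as well, with Tfeb at 1.83 ± 0.067, Tfe3 at 4.58 ± 0.11 and Tfec at 2.70 ± 0.089. Mitf had levels of 3.15, 4.96, 5.05 and 4.89 and was the 1 gene of the list that passed the variance test (adjusted p = 0.024, limma). It did not pass without replicate 1 (adjusted p = 0.993, limma), and the other percentiles, quantile normalization, the mean of its probes, a prior without trend and leaving out replicate 2 also ended the call.

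Of 9 genes that act with cathepsins in antigen processing, 4 were detected and 5 carried no mark on any array, again near the 47.9% detected among all named genes. Ifi30, a lysosomal thiol reductase, had levels of 7.71, 7.84, 7.90 and 7.67. The peptide loading genes RT1-DMa and RT1-DMb had 5.37 ± 0.14 and 4.97 ± 0.15 (SD, n = 4), and RT1-Db1 was the other gene detected. Cd74, the invariant chain that cathepsin S cuts, was among those without a mark, and so were RT1-Ba, RT1-Bb, RT1-Da and the class II regulator gene Ciita. Of 7 serine proteases that cathepsin C can activate or that belong to such granules, Gzmb was detected on all arrays, at -1.63 ± 0.21, and the other 6, among them Elane, Prtn3 and Gzma, on none. Ctss and Ctsc were thus detected on arrays where several of their known substrates carried no mark.

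Other genes of the osteoclast programme were detected where Ctsk was not. Of 6 measured, 5 were detected, against 47.9% of all named genes, and Tnfrsf11a, the receptor for RANKL, was marked on 2 arrays. Ctsk was read by 1 probe with 1 spot per array, and whether that probe can detect its RNA was not tested. Acp5, the acid phosphatase of osteoclasts and macrophages, had levels of 0.27, 0.70, 0.093 and -0.016. The transcription factor gene Nfatc1 had 4.46, 4.56, 4.44 and 4.06. The calcitonin receptor gene Calcr, Oscar and Itgb3 were the others, with Calcr at 1.84 ± 0.048 (SD, n = 4), and Dcstamp and Ocstamp were not matched to a probe.

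**Figure D5:**
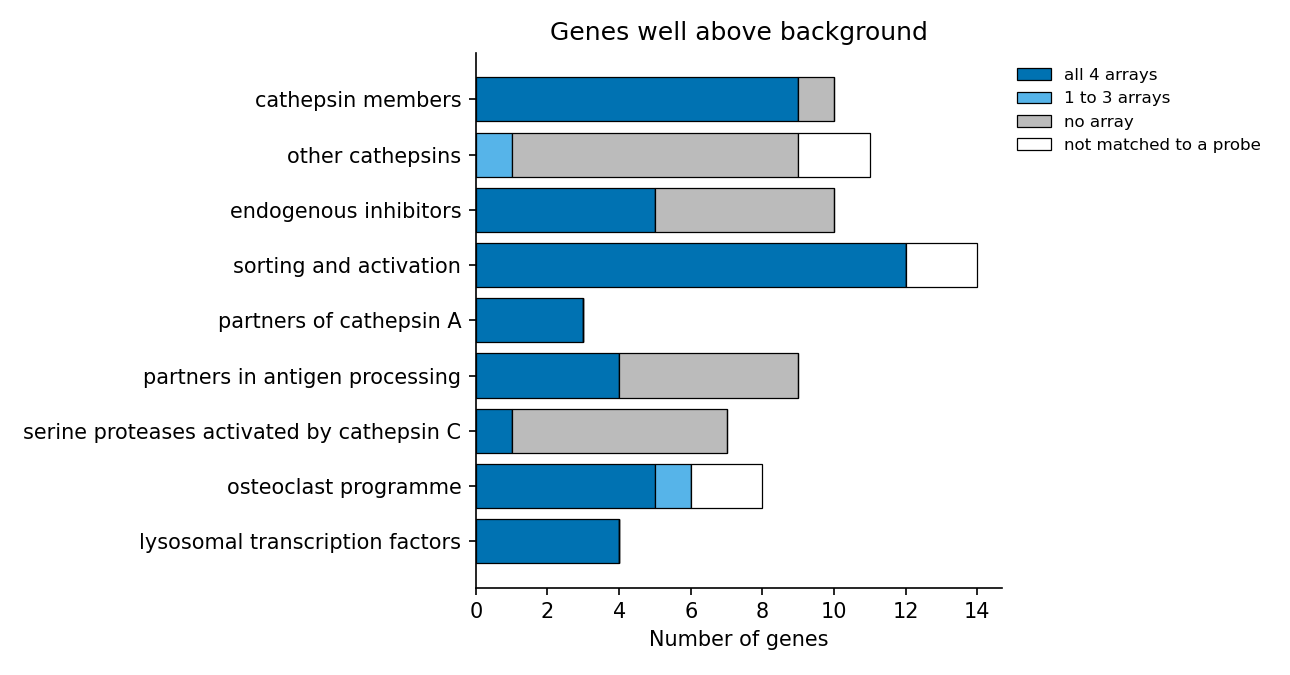
Number of genes (horizontal axis) among the cathepsin members and in 8 lists of related genes. Colours show whether the mark for signal well above background was present on all 4 arrays, on 1 to 3 or on none, or whether no probe was matched. The bar of the cathepsin members holds 9 of 10 on all 4 arrays. That of the other cathepsins holds 0 of 9 measured genes on all 4 arrays and 2 genes not matched to a probe.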

How the data were processed

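Labelled RNA of the 4 exposed replicates was read on 1-colour arrays. The deposited files hold, per spot, intensity on a linear scale from Agilent Feature Extraction 11.0.1.1, per the submitters' processing notes. Per the file headers, that software had subtracted background from the intensity and corrected spatial trends on each array separately. Arrays were not normalized to each other, and dim spots carry a small positive value in place of a negative one. All were on the same slide and scan, and replicates correlated at 0.982 to 0.993 across probes. The mark for a signal well above background is another of the deposited columns, a 0 or 1 per spot set by the software, per the file headers.

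From these, log2 processed intensity was averaged over a probe's spots, without control and non-uniform spots, and the 75th percentile of all probes on that array was taken off. A gene was well above background on an array if 50% or more of its probe's spots were marked. Accessions without versions were matched to RefSeq genes of GRCr8, used for names, order of neighbours and promoter sequences, which named 21109 of 45598 probes. For genes with several probes the one with the highest mean was used. Genes so marked on 2 or more arrays were fitted with limma 3.58.1 in R 4.3.3. Residual variances were set against the squeezeVar prior with a trend on level (F test, one-sided), and p-values were adjusted by Benjamini-Hochberg with a threshold of 0.05. The test was also run on data simulated from its own fitted prior, which cannot show how it behaves on real arrays. Other scalings, background correction, filters, priors and leaving out each replicate were tried. The members and lists were chosen with earlier results of these data known. In each list the first 4 genes, those that passed the test and those behind a count of 5 or fewer were named.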

Additional observations from a re-analysis of the deposited data

Results flagged for a closer look

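The level of 1 array stood far from the other 3 for 2 of 28 genes examined, where chance gives about 1 in 20. The level of Ctsh was 3.08 on replicate 1, against 3.53 to 3.59 on the others. The level of Mitf was 3.15 on replicate 1, against 4.89 to 5.05. A second probe of Mitf, also well above background on all arrays, had 3.73, 3.07, 3.55 and 3.60 on replicates 1 to 4 and was highest on replicate 1. The cause of neither gap was tested.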

How the results depend on the processing

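The count of 9 cathepsin genes well above background was the same under all 7 alternatives tried. Leaving out a replicate, asking for 2 arrays or asking for all probes of a gene could not change it. The reason is that each of the 9 has 1 probe marked on all 4 arrays, and Ctsk has no mark. Only the software's mark for a positive and significant signal could have given another count. The count of 0 passing the variance test (limma) was the same under all 12 alternatives tried for it, with adjusted p between 0.607 and 0.998. Over all tested genes the 70 calls became 0 with the percentile over detected probes or a prior without trend, and 1 with that over all spots or quantile normalization. They became 72 with the mean of a gene's probes, 207 with a robust prior, 356 with dim probes kept and 236 with the other background correction. Without replicates 1, 2, 3 and 4 they were 89, 27, 161 and 43. The median SD of 0.11 was 0.096 with the percentile over detected probes, 0.091 with that over all spots and 0.076 with quantile normalization. It was 0.17 with the other background correction. That was normexp on the median spot and background signals with an offset of 50 added, chosen after seeing that the files lack mean signals. Leaving out 1 replicate it was between 0.070 and 0.13, lowest without replicate 1. The range over arrays of the median deviation, 0.22, was 0.11 with the percentile over detected probes, 0.13 with that over all spots, 0.062 with quantile normalization and 0.31 with the other background correction. It lay between 0.090 and 0.20 without 1 replicate, again lowest without replicate 1. All 9 levels moved by more than their SD under the other percentiles, which shift the zero point alike for every gene. All 9 also did so under the other background correction, where the method and the offset changed together and were not tested apart. None moved so far with quantile normalization or without 1 replicate. Each member has 1 probe, so agreement between probes could not be examined. No paired analysis was possible because there is 1 group.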
